A study of Homo sapiens with 4 samples.

Results

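N7-methylguanosine (m7G) peaks were examined in the protein-coding genes that carried a peak in HL60/MX2 cells and none in HL60 cells. Each row of the 2 deposited peak lists was given to the GENCODE protein-coding gene on its strand with the largest exon overlap in hg19, and the HL60/MX2 rows whose gene had no row in the HL60 list were kept. This left 4103 peaks in 3330 genes, 50.5% of the 8122 peaks of the HL60/MX2 list and part of 16192 peaks in both lists together. The members were chosen by the presence of a peak in one list and its absence from the other, so their number and their direction are a description and carry no test.

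HL60, written HL-60 in the labels, is a human promyelocytic leukaemia line given as wild type, and HL60/MX2 is a drug-resistant line of acute myeloid leukaemia cells that was selected for resistance to mitoxantrone. Both were grown in the same medium without a stated drug. From each line 1 library of poly(A) RNA was decapped with tobacco decapping enzyme, cut to fragments of about 200 nt and enriched with an antibody against m7G. Its peaks were called by MACS, and the 2 input libraries were not analysed here. With 1 enriched library per line no difference between the lines has a replicate check, and more m7G on an mRNA cannot be told apart from more of that mRNA.

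m7G is best known as the cap at the 5' end of mRNA, where it is read by the translation initiation machinery, and it is also placed inside tRNA, rRNA and mRNA by enzymes such as METTL1 with its partner WDR4. Since the cap was removed before enrichment, a peak here stands for a fragment taken to hold an internal m7G. Mitoxantrone, used against myeloid leukaemia, traps type II topoisomerases on cut DNA. Changed topoisomerases and drug efflux pumps are known ways by which leukaemia cells come to tolerate it.

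Of 20163 protein-coding genes, 16.5% had a peak in HL60/MX2 only, 14.4% (2901 genes) in HL60 only and 12.0% (2423 genes) in both. The HL60/MX2-only genes mostly carried a single peak: 2708 of 3330 did, 81.3% with an exact Clopper-Pearson 95% interval of 80.0 to 82.6, which here and throughout covers counting error only. Another 503 genes held 2 peaks, 95 held 3 and 24 held 4 or more, a mean of 1.23. A gene with more peaks has more chances to meet the other list, so the number of peaks per gene is bound to the choice of genes. No member peak overlapped an HL60 peak, which follows almost wholly from the choice of genes, since such a peak would usually go to the same gene. An HL60 peak lay within the span of 37 of the genes on the same strand, introns included, and 6 had exons touched by an HL60 peak that was given to an overlapping gene.

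The strongest members that lay wholly inside coding sequence are printed to show what such a peak looked like. They are the 8 highest scoring member peaks of 60 to 200 nt that were coding in every annotated coding transcript they touched, which left out peaks such as those of SUPT5H and IL27. They are given with hg19 coordinates, read 5' to 3' on the strand of the gene from the reference, with capitals marking GGAAA or GGAAG.
LUC7L3 (chr17:48822013-48822174, plus strand, exon 7): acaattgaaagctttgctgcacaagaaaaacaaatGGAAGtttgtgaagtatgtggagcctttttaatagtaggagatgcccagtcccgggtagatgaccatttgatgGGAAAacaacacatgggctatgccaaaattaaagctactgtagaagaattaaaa
CR1 (chr1:207742450-207742583, plus strand, exon 26): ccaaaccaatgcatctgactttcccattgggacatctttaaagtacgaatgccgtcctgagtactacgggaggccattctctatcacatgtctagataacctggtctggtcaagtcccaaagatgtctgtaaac
GAGE12C (chrX:49298484-49298604, plus strand, exon 3): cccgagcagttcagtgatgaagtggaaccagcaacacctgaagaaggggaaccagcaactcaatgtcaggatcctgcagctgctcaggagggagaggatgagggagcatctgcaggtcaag
ANP32B (chr9:100773553-100773671, plus strand, exon 5): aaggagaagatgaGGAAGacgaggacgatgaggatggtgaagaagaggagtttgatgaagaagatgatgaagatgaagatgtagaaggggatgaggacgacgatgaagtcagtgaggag
NUTM2E (chr10:81608539-81608651, plus strand, exon 8): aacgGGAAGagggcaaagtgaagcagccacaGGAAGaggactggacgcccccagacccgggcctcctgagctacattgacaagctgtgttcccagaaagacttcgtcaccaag
SPACA5B (chrX:47990643-47990743, plus strand, exon 2): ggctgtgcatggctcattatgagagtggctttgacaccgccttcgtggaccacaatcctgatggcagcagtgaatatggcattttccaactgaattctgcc
EIF5B (chr2:99985855-99985944, plus strand, exon 8): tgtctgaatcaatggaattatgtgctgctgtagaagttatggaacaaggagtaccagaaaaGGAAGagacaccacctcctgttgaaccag
DDX54 (chr12:113599740-113599802, minus strand, exon 18): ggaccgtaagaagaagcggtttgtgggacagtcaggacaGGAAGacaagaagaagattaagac
LUC7L3 and DDX54 encode RNA-binding proteins of the nucleus, a spliceosome-associated protein and a DEAD box helicase. ANP32B encodes an acidic nuclear chaperone, and its printed exon is rich in codons for the acidic residues glutamate and aspartate. EIF5B encodes the GTPase that joins the ribosomal subunits at the start of translation, and CR1 a receptor for complement. Capitals stand in 5 of the 8 sequences. GAGE12C, SPACA5B and NUTM2E belong to families of near-identical copies, so their reads could have come from another copy. CR1 shows the same within 1 gene: its peak in exon 26, with the score of 3100, and its peak in exon 10 (chr1:207706800-207706933), with a score of 1837.59, are identical at all 134 positions, so the reference does not separate these exons.

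The 6 highest scoring member peaks that covered a start codon were all at 3100 and the longest of those at that score. They are shown by the 30 nt around the codon, with ATG in capitals. By largest overlap TWNK was classed in the 5'UTR and the others in the CDS. None of them therefore counts in the start codon class used below.
HNRNPU (chr1:245027592-245027621, minus strand, exon 1): ggggccctcaccATGagttcctcgcctgtt
ZNHIT6 (chr1:86173950-86173979, minus strand, exon 1): gatcgtgagttgATGgagtttgctgctgaa
AEBP2 (chr12:19592622-19592651, plus strand, exon 1): gcaggcgccgccATGgccgccgctatcacc
TWNK (chr10:102747956-102747985, plus strand, exon 1): atttggctaggaATGtgggtcctcctccga
HNRNPL (chr19:39340589-39340618, minus strand, exon 1): ttctgcgccgccATGtcgcggaggctgctg
GLRX5 (chr14:96001415-96001444, plus strand, exon 1): ttgcgtgcggagATGagcgggtccctcggc
HNRNPU and HNRNPL encode abundant RNA-binding proteins of the spliceosome environment, ZNHIT6 a factor for the assembly of box C/D small nucleolar particles, AEBP2 a partner of the polycomb complex PRC2, TWNK the mitochondrial DNA helicase and GLRX5 a mitochondrial protein of iron-sulphur cluster assembly. All 6 peaks lay in the first exon. Their GC content ran from 52.0% in ZNHIT6 to 76.9% in HNRNPL.

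The HL60/MX2-only peaks lay near the 5' end of the mRNA more often than other peaks. On the longest coding transcript of each gene, 3437 of the 4103 peaks could be placed, and the other 666 lay in exons of other transcripts. The 5'UTR held 7.16% (6.32 to 8.07), the 100 nt on either side of the start codon 15.7% (14.5 to 17.0), the remaining CDS 53.2% (51.6 to 54.9), the stop codon region 4.86% (4.16 to 5.63) and the rest of the 3'UTR 19.0% (17.7 to 20.4). The first pair, called the 5' end from here on, took 22.9% of the peaks (787, interval 21.5 to 24.3). It took 11.8% (10.7 to 13.0) of the HL60/MX2 peaks in shared genes, those with a row in each list, and 13.1% (12.0 to 14.4) of the HL60 peaks in HL60-only genes. The interval of the HL60/MX2-only genes lies above both others, which overlap each other. The HL60 peaks in shared genes had 7.71% (6.83 to 8.66). In each list, genes with a peak in that list only thus stood above the shared genes. The 5' end made up 8.83% of transcript length in the HL60/MX2-only genes, 6.31% in the shared genes and 8.52% in the HL60-only genes, so the groups differed less in length than in peaks. The 3'UTR was the opposite case, with 42.6% of the length and 19.0% of the peaks.

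**Figure D1:**
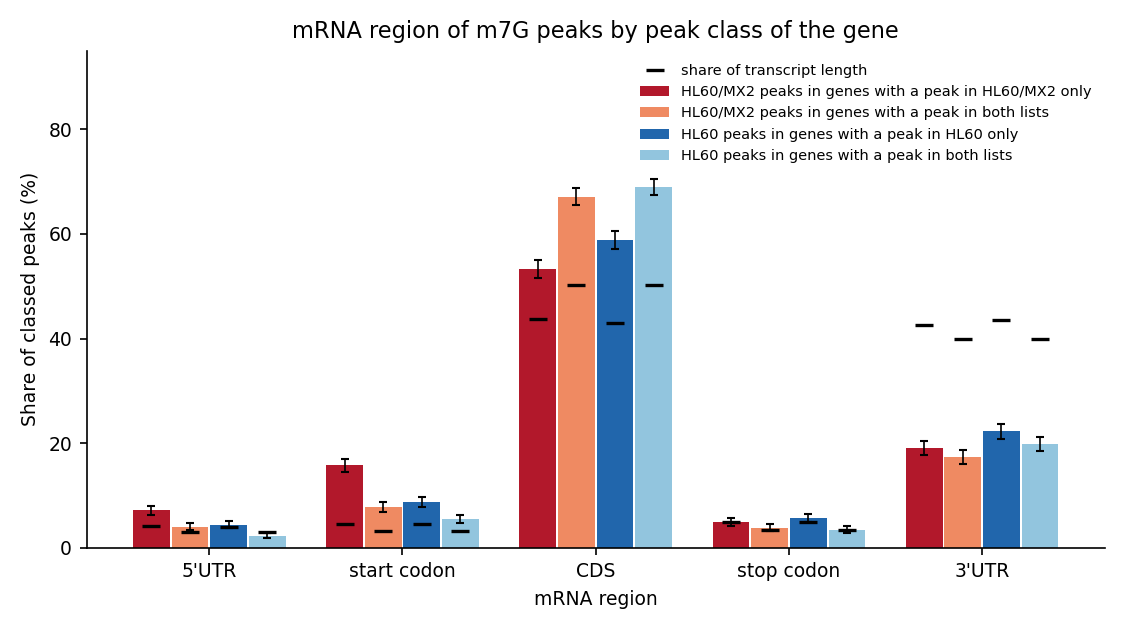
Share of classed peaks (y axis, %) in each mRNA region (x axis) for the 4 groups of peaks, with exact 95% intervals as error bars and the share of transcript length as black dashes. The dark red bars, HL60/MX2-only genes, stand highest at the 5'UTR (7.16%) and the start codon (15.7%) and lowest at the CDS (53.2%).

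Along the mRNA the peaks were most frequent just inside the coding sequence. With the CDS cut into 10 equal bins, the first bin held 390 of the 3437 peaks (11.3%), the next 7.56% and the last 4.89%. The first bin held 8.41% of the HL60/MX2 peaks in shared genes and 7.47% of the HL60 peaks in HL60-only genes. The first exon held 20.4% (19.0 to 21.8) of the peaks, against 9.07% in the shared genes and 12.1% in HL60-only genes. Within 100 nt of the annotated transcript start lay 9.46% (8.50 to 10.5), against 4.28% and 5.05%. The last exon held 29.3%, between 24.9% in the shared and 34.5% in HL60-only genes.

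**Figure D2:**
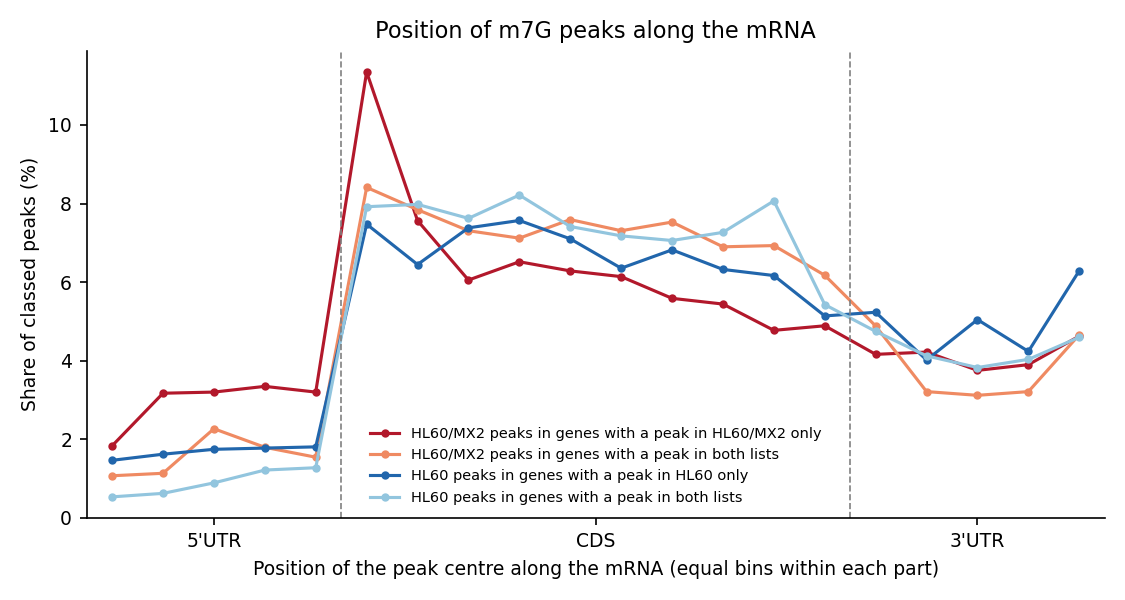
Share of classed peaks (y axis, %) by the position of the peak centre (x axis), in 5 equal bins of the 5'UTR, 10 of the CDS and 5 of the 3'UTR, for the 4 groups of peaks. The dark red line of HL60/MX2-only genes reaches 11.3% in the first bin of the CDS and lies above the other lines in all 5'UTR bins.

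The difference at the 5' end was also seen within most classes of gene length and composition, with overlapping intervals in the shortest and in the most GC-rich genes. Within quintiles of exon length the share ran from 30.1% in the shortest genes to 17.4% in the longest, and in the shared genes from 21.7% to 8.95%. In the longest quintile the HL60/MX2-only genes also stood above the HL60-only genes, 17.4% (14.9 to 20.0) against 5.68% (4.25 to 7.42), while in the shortest quintile they overlapped, 30.1% (25.5 to 35.0) against 29.5% (24.9 to 34.5), as did the shared genes (14.3 to 30.8). Over quintiles of the GC content of the gene the share in HL60/MX2-only genes stayed between 22.3% and 24.0%. It was 10.2% to 14.1% in the shared and 11.9% to 16.6% in HL60-only genes. In the most GC-rich quintile the interval of the HL60/MX2-only genes (20.7 to 27.7) overlapped that of the HL60-only genes (12.1 to 22.0).

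The peaks at the 5' end were rich in G and C. Over all 4103 peaks the mean GC content was 51.3% with an SD of 13.1 over peaks, against 47.4% (SD 11.3) in the shared genes and 46.5% (SD 11.0) in the HL60-only genes. The 5' end peaks averaged 60.8% (SD 13.4), those of the CDS 50.4% (SD 11.3) and those of the 3'UTR 43.4% (SD 10.6). The 5' end peaks of the shared genes averaged 55.8% and those of the HL60-only genes 51.6%. The ratio of observed CpG pairs to those expected from base content was 0.802 at the start codon and 0.251 in the 3'UTR of the HL60/MX2-only genes, and 0.522 at the start codon of the HL60-only genes.

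The HL60/MX2-only genes themselves were also richest in G and C, while the other groups changed places. The median GC content of all exons of a gene was 48.4% (quartiles 42.4 to 56.1) in HL60/MX2-only, 45.3% in HL60-only and 44.1% in shared genes. Across quintiles of GC content the share of genes with a peak in HL60/MX2 only stayed between 14.9% and 17.3%, beside 16.5% for all genes. The share with a peak in HL60 only fell from 19.7% in the most AT-rich quintile to 6.65% in the most GC-rich one. There were therefore 0.843 HL60/MX2-only genes per HL60-only gene in the first quintile (669 and 794 genes) and 2.24 in the last (600 and 268). GC content thus moved with the HL60-only share more than with the HL60/MX2-only share. Its part in the gene counts was not tested, since the lists hold no read counts.

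**Figure D3:**
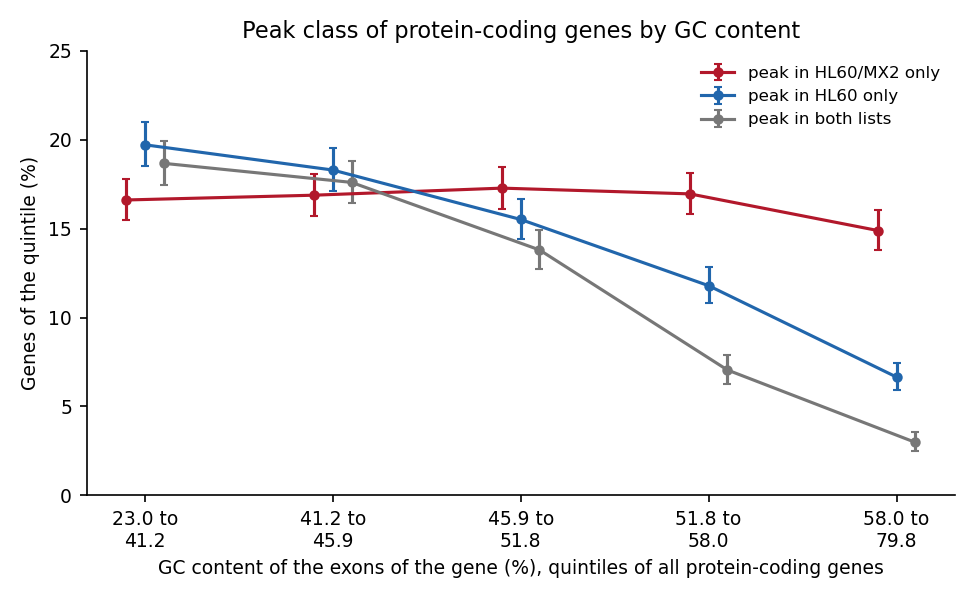
Share of protein-coding genes (y axis, %) with a peak in HL60/MX2 only, in HL60 only and in both lists, by quintile of exon GC content (x axis, %), with exact 95% intervals. The HL60/MX2-only share stays between 14.9% and 17.3%, whereas the HL60-only share falls from 19.7% to 6.65%.

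The median exon length of the HL60/MX2-only genes was 5247.5 bp (quartiles 3281.25 to 8017.25) with 10 exons in the longest coding transcript. HL60-only genes had 5173 bp and 9 exons and shared genes 7483 bp and 14 exons. Of the shortest quintile of all genes 9.23% were HL60/MX2-only, and of the longest 20.7%. By chromosome, HL60/MX2-only genes exceeded HL60-only genes most on chromosome 16 (138 and 66 genes), 22 (85 and 45), 9 (145 and 90) and 19 (264 and 165), and fell short most on chromosome 18 (38 and 63). The median exon GC content of genes was 55.4% on chromosome 16, 56.4% on 22, 50.1% on 9 and 57.8% on 19, and 43.6% on 18. The longest row of neighbouring peaked genes that were all HL60/MX2-only spanned 14 genes on chromosome 16 (chr16:134270-2822539 in hg19), from NPRL3, a subunit of the GATOR1 regulator of mTORC1, to SRRM2, a scaffold of nuclear speckles. A row of 9 lay on chromosome 10 (chr10:102047906-102897546) and held SCD, a fatty acid desaturase, and TWNK.

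Each peak carries a score, whose scale the list does not name and which is compared here only within a list. The member peaks had a median score of 244.7 (quartiles 119 to 471, lowest 50.03, highest 3100), and the other HL60/MX2 peaks with a gene had 274. The highest value, 3100, was shared by 53 peaks of the list. Of these, 38 were members, 0.926% (0.656 to 1.27) of them, against 0.351% (0.187 to 0.600) of the peaks in shared genes. Median length was 137 bp in the members, 126 bp in the HL60/MX2 peaks of shared genes and 131 bp in HL60-only genes. The members ranged from 1 to 1216 bp, and 630 of them (15.4%) were under 50 bp. In 19.6% of cases a peak matched an annotated exon from end to end. Score was nearly unrelated to length (Spearman's rho 0.02 over the 4103 peaks) and to GC content (0.03), and peaks from 1 library share its depth. In 4 equal classes of rising score the 5' end took 21.5%, 23.2%, 22.5% and 24.4%.

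The 10 member peaks that led by score were all at 3100 and were ordered by length. ARHGAP30 (938 bp, exon 12), a GTPase activating protein, led, followed by PNISR (936 bp, exon 11), a nuclear protein with serine and arginine repeats, and HNRNPU (909 bp, exon 1). PPIG (908 bp, exon 13), a cyclophilin with the same kind of repeats, and PRPF38B (868 bp, exon 6), a splicing factor, came next. ZSWIM9 held its peak of 777 bp in the 3'UTR. ZNHIT6 (766 bp), AEBP2 (697 bp) and TWNK (679 bp) were in first exons. ZC3H13 (556 bp, exon 12), a subunit of the complex that places m6A on mRNA, closed the 10. Among the others at 3100 were NCL (nucleolin), SREK1, a regulator of splicing, SUPT5H, a subunit of the elongation factor DSIF, CHAF1A, a histone chaperone of replication, and 2 exons of INCENP, a scaffold of the chromosomal passenger complex. They were singled out after their values were seen. At the other end, the member peaks closest to the lowest score lay in ZC3H14 (50.03), RAB11FIP3 (50.06), CARHSP1 (50.07), PLXNB1 (50.12) and HK3 (50.52). Just outside, the genes that a single weak HL60 peak kept out were PPM1B (HL60 score 50), HELZ (50.12), STX11 (50.34), DNAJC10 (50.42) and ZNF221 (50.53), and ZNF221 scored 777.16 in HL60/MX2.

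The gene with the most peaks was VPS13D, which encodes a bridge-like lipid transfer protein needed for mitochondrial clearance. Its 9 peaks, all in the CDS, ran from exon 7 to exon 67 of 70, with scores of 75.07 to 640.2. KANK2, an adaptor between integrin adhesions and microtubules, held 5 peaks, the strongest (1853.19) in 5'UTR exon 1. RNF213, a giant ubiquitin ligase, had 5 peaks of 187.76 to 958.07. FMNL2, a formin that extends actin filaments, had 5 of 120.97 to 953.48.

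Of the genes with 4 peaks, CR1 ranged from 96.77 to 3100, CNTN6, a neural adhesion molecule, from 476.26 to 1636.13, and RASA4, a RAS GTPase activating protein with close copies next to it, from 169.83 to 1596.91. KAT6B, a histone acetyltransferase, had 4 peaks in the CDS, with exon 16 at 2066.14 and the rest at 90.38 to 155.84. COL9A2, a cartilage collagen, spanned 230.77 to 968.47, and WDPCP, a planar polarity effector of cilia, 105.82 to 797.87. Scores thus differed severalfold between exons of the same transcript. The longest member peaks lay in the 3'UTR of KCNN3 (1216 bp, score 364.49), a calcium-activated potassium channel, in the CDS of PLEC (1150 bp, 278.13), a cytoskeletal linker, and in exon 29 of POLR2A (1091 bp, 1199.74), which holds the repeats of the tail of the largest RNA polymerase II subunit.

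**Figure D4:**
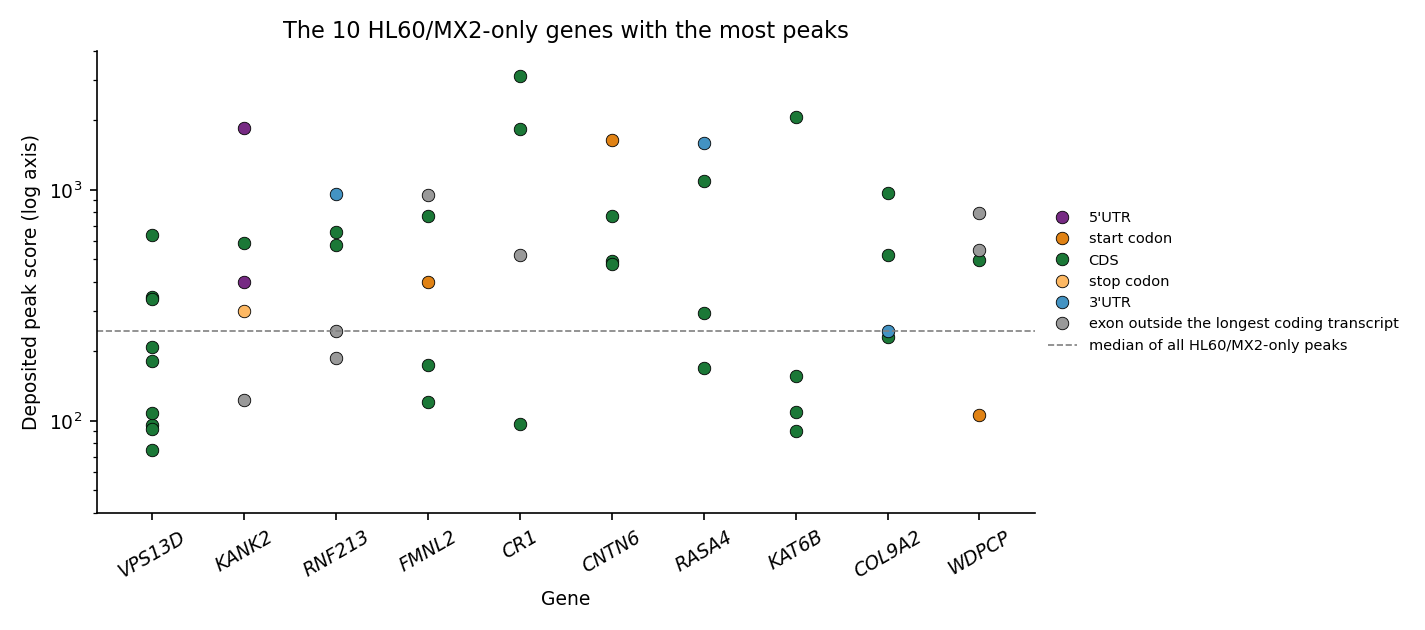
Deposited score (y axis, log scale) of every peak in the 10 HL60/MX2-only genes with the most peaks (x axis), each point a peak coloured by mRNA region, with the median of all HL60/MX2-only peaks (244.7) as a dashed line. Scores within a gene spread widely, from 96.77 to 3100 in CR1, and the 9 peaks of VPS13D are all in the CDS.

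Drug target and resistance genes were members about as often as all genes. In a list of 22 drug target and resistance genes, 4 had a peak in HL60/MX2 only (18.2%, 5.19 to 40.3, beside 16.5% of all genes), 1 in HL60 only and 1 in both. TOP1, the type I topoisomerase that relaxes DNA ahead of polymerases, had 3 coding peaks: exon 4 at 1214.49, exon 6 at 83.12 and exon 7 at 618.8. TOP2B, a type II topoisomerase made in dividing and non-dividing cells and a target of mitoxantrone, had 1 peak of 60 bp in exon 26 of 36 (chr3:25656922-25656981, minus strand, 33.3% GC) at 1191.82, the 95.9th percentile of the list. TOP3B, which also acts on RNA, had a 5'UTR peak of 232 bp at 539.91. CUL4B, a scaffold of ubiquitin ligases, had 1 at 126.65.

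ABCB1, the efflux pump P-glycoprotein, was in HL60 only, with 3 peaks of at most 107.12. NQO1, a quinone reductase, was in both, at 850.6 in HL60 and 156.28 in HL60/MX2, scores from separate lists that are not compared. Among the genes of this list with no peak in either line were ABCC1, ABCG2, BCL2, CBR1, CBR3, CUL4A, GSTP1, MDM2, MVP, SMARCB1, TDP1, TDP2, TOP1MT, TOP2A and TOP3A.

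A list of peaks holds no expression level, so myeloid markers could not check the cell type here. Of 14 markers 4 had a peak in HL60/MX2 only (28.6%, 8.39 to 58.1, an interval that holds the 16.5% of all genes), none in both and 1 (CTSG, a granule protease) in HL60 only. The 4 were CSF3R, the G-CSF receptor (881.48, a 23 bp coding peak), ITGAM, an integrin of mature myeloid cells (512.76), MYB, a transcription factor of progenitors (163.74, over the start codon), and CD33, a surface antigen of myeloid cells (83.7). AZU1, CEBPA, CEBPE, ELANE, LYZ, MPO, MYC, PRTN3 and SPI1 had no peak in either list, among them granule genes for which HL60 is known. Of 15 genes that define other tissues, SFTPC, a lung surfactant protein, was HL60/MX2-only (485.32; 6.67%, 0.169 to 31.9, which also holds 16.5%), 4 were HL60-only and 2 were in both.

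Among the larger gene lists, chromatin modifiers and remodellers stood farthest above the background. Of 113 such genes 35 were HL60/MX2-only, 31.0% with an interval of 22.6 to 40.4, against 16.5% of all genes. They are long, with a median exon length of 9549 bp. Of the longest quintile of all genes 20.7% (19.5 to 22.0) were HL60/MX2-only, a nearer background than 16.5%. Another 13 were HL60-only (11.5%, beside 14.4% of all genes and 17.4% of the longest quintile). In both lists were 21 of the 113, beside 12.0% of all genes and 27.6% of the longest quintile. Their 56 peaks lay in the CDS in 39 cases. Besides KAT6B the best scores belonged to HDAC1, a histone deacetylase (1388, over the start codon), TET1, which oxidises 5-methylcytosine (1356.8 in exon 2), and SMARCC1, a core subunit of the BAF remodeller (3 peaks of 162.66 to 1245.4).

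Lists for membrane traffic lay above the background with intervals that reached it. COP, SEC and TRAPP genes, for vesicle coats and tethers, counted 14 of 54 (25.9%, 15.0 to 39.7), with 3 in HL60 only. Their strongest were SEC14L3 (1505.18) and SEC14L4 (946.68), lipid-binding proteins caught by the SEC part of the list's name and not coat proteins, and COPZ1, a COPI coat subunit (736.1, at the start codon). SEC14L6 (522.01) belongs to the same family as the first pair, and all 3 lie next to one another. RAB GTPases, the switches that direct vesicles, counted 17 of 73 (23.3%, 14.2 to 34.6), with 5 in HL60 only. The 4 best RAB peaks were all at the 5' end of the mRNA: RAB20 (3100), RAB21 (2460.23), RAB8A (1408.3) and RAB5A (1031.3). VPS and sorting nexin genes counted 16 of 76 (21.1%) and 27 peaks, of which VPS13D gave 9. VPS36, a subunit of ESCRT-II, scored 1226.92, VPS51 616.88 and VPS4A, the ATPase of ESCRT-III, 576.48.

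Cell cycle and ubiquitin lists fell on both sides of the background, and of these only F-box proteins and cullins had an interval that stayed above it. F-box proteins and cullins, substrate receptors and scaffolds of ubiquitin ligases, counted 19 of 70 (27.1%, 17.2 to 39.1), with 12 in HL60 only. Their median exon length was 5624.5 bp. Of all genes in the quintile of that length (5319 to 7992 bp) 20.0% were HL60/MX2-only, a value inside the interval. FBXO32 led with 973.85 in the 3'UTR, before FBXO36 (818.73), FBXW11 (608.98) and FBXO25 (578.41). Cyclins, cyclin dependent kinases and CDC genes counted 20 of 85 (23.5%, 15.0 to 34.0), with 9 in HL60 only, and were led by CDC25C, the phosphatase that starts mitosis (656.02), CCNP (589.75), CDC42BPA (578.41), a cytoskeletal kinase caught by its name, and CDK11B (541.62). TRIM and RNF ubiquitin ligases counted 32 of 159 (20.1%). TRIM41 reached 3100, TRIM33 1841.35 and RNF141 1262.44. E2 enzymes counted 7 of 36 and were led by UBE2J2 (1744.28), and ubiquitin specific proteases 14 of 78, led by USP20 (924.31). In the list for the kinetochore and the anaphase promoting complex, 5 of 53 genes were members (9.43%, 3.13 to 20.7), led by CENPE, a mitotic kinesin, with 1184.35.

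RNA and mitochondrial lists fell on both sides of the background. DEAD and DEAH box helicases, which unwind RNA, counted 12 of 54 (22.2%, 12.0 to 35.6), with DDX54 at 2744.42. Spliceosome proteins counted 11 of 86 (12.8%, 6.56 to 21.7), with 4 in HL60 only, and HNRNPL, HNRNPU and PRPF38B at 3100 and HNRNPM at 1175.05. Nucleoporins, the subunits of the nuclear pore, counted 5 of 23, led by NUP160 (1425.19). RNA modification enzymes and readers counted 10 of 81 (12.3%), with VIRMA, a scaffold of the m6A writer, holding 4 coding peaks of 199.88 to 710.87. Mitochondrial import and carrier genes counted 18 of 75 (24.0%, 14.9 to 35.3), with 7 in HL60 only. They were led by SLC25A12, an aspartate and glutamate carrier (3100, 17 bp), TOMM20L (1504.69) and TIMM22, an import pore of the inner membrane (1249.42 at the start codon). Mitochondrial ribosomal proteins counted 6 of 78, and 4 of their 6 peaks lay at the 5' end. Translation initiation factors counted 4 of 56, with EIF5B and EIF3A (2519.8) among them, and all 7 of their peaks were in the CDS.

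Cytoskeletal lists were near the background or small. Myosins counted 10 of 39 (25.6%), tubulins 6 of 30 with none in HL60 only, ARHGAP, ARHGEF and DOCK genes, which switch small GTPases on or off, 14 of 72 (19.4%) and kinesins and dyneins 14 of 79 (17.7%). Zinc finger genes, the largest family of transcription factors, counted 102 of 557 (18.3%, 15.2 to 21.8). Their 116 peaks lay at the 5' end in 40 cases, with ZNF574 at 3100 and ZNF345 (5'UTR) at 2594.12. Members of this family resemble one another in sequence.

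Some lists lay below 16.5%. Only RPL37A (405.61) of 86 cytosolic ribosomal proteins was HL60/MX2-only (1.16%, upper bound 6.31). Another 2 were in HL60 only and 1 in both, and 82 had no peak in either list. Olfactory receptors, the odorant receptors of the nose, counted 28 of 414 (6.76%, 4.54 to 9.63), with 50 in HL60 only. Keratins and keratin associated proteins counted 12 of 149 (8.05%, 4.23 to 13.6). Olfactory receptor and keratin genes are short, with median exon lengths of 1195 and 1150 bp, and of the shortest quintile of all genes 9.23% were HL60/MX2-only, a value inside both intervals. Core and linker histones counted 2 of 87 (0.280 to 8.06%), with 2 in HL60 only, 1 in both and 82 without a peak in either list. Respiratory chain and ATP synthase subunits counted 6 of 94 (2.38 to 13.4%), with 8 in HL60 only. Mitochondrial ribosomal proteins counted 6 of 78 (2.88 to 16.0%), with 5 in HL60 only. Median exon lengths of the histone, respiratory chain and mitochondrial ribosomal lists were 570, 2460 and 2544 bp. The intervals of the lists that follow reached 16.5%. Protocadherins counted 5 of 66 (2.51 to 16.8%) with 15 in HL60 only, protein tyrosine phosphatases 3 of 36 (1.75 to 22.5%) with 18 in both, and the BCL2 family and caspases 2 of 37 (0.661 to 18.2%), XIAP (259.46) and HRK (79.91).

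**Figure D5:**
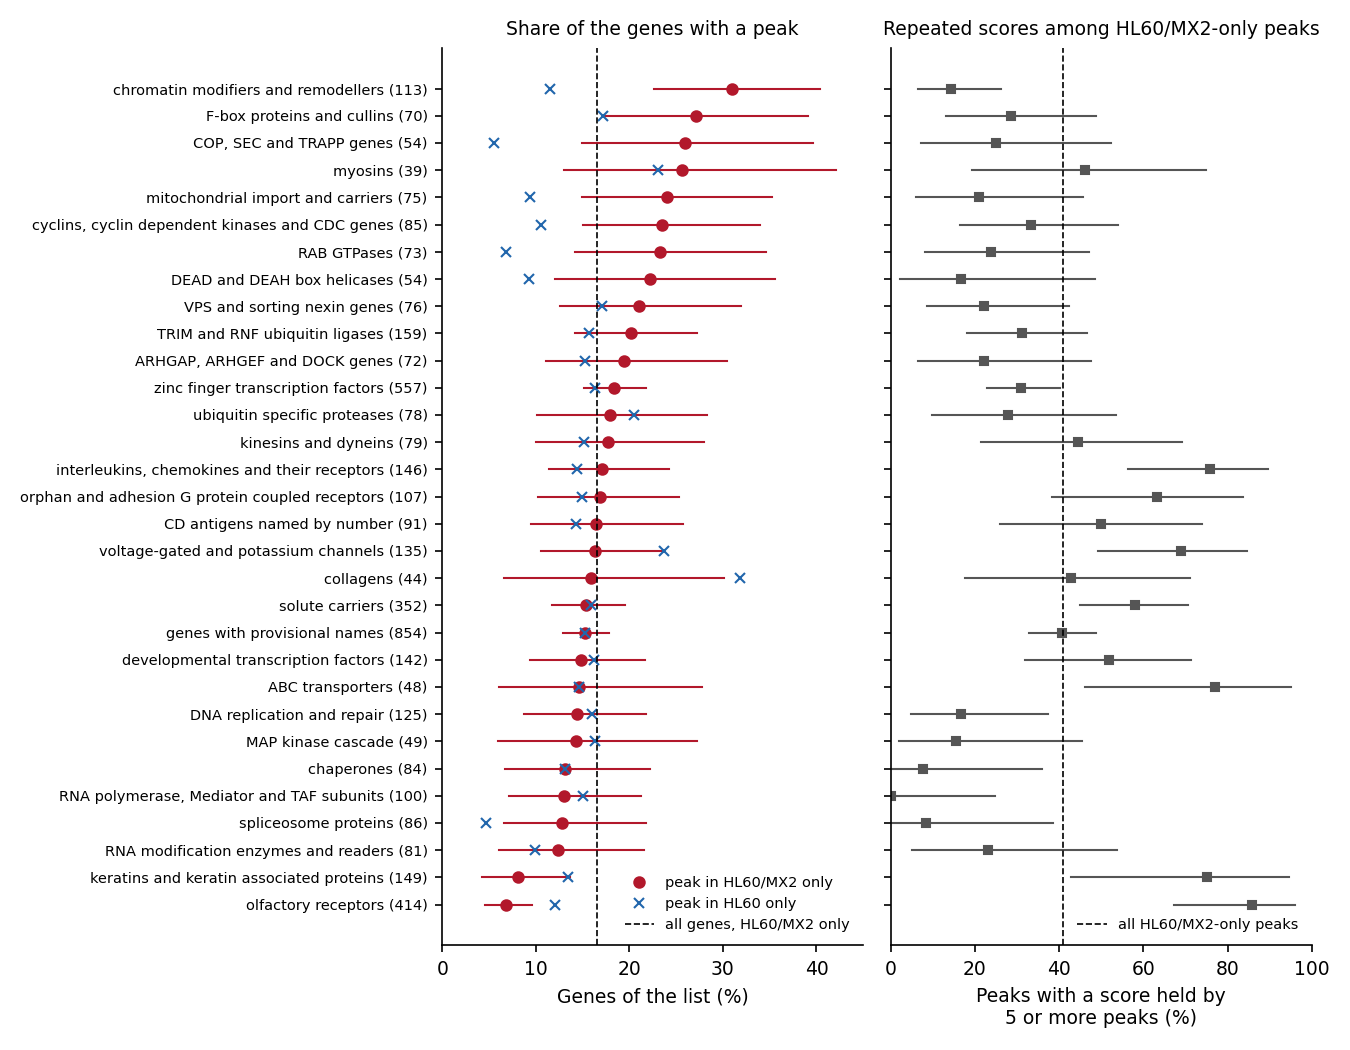
Left, share of the genes of each list (number of genes in brackets) with a peak in HL60/MX2 only (red points with exact 95% intervals) and in HL60 only (blue crosses), beside the 16.5% of all genes (dashed line). Right, share of the list's HL60/MX2-only peaks whose score at least 5 peaks of the HL60/MX2 list hold, beside 40.9% of all members (dashed line). Peaks at 3100 are in the totals but are not counted as repeated. Lists with 10 or more member peaks are shown. Chromatin modifiers stand at 31.0% on the left and 14.3% on the right, olfactory receptors at 6.76% and 85.7%.

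Many member peaks had exactly the same score as peaks in unrelated genes, a property the choice of members did not use. The score of 118.08 was held by 63 peaks of the list, 32 of them members, in genes as far apart as AMPH, IRAK2, ULK1 and the olfactory receptor OR2Y1. Leaving aside the 38 peaks at 3100, 1677 members (40.9%) had a score that at least 5 peaks held, 345 a score held by 2 to 4 peaks, and 2043 (49.8%) a score of their own. In the shared genes 54.7% of the HL60/MX2 peaks had a score held by at least 5 and 37.5% one of their own.

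The share of such repeated scores differed widely between gene lists. Peaks at 3100 stayed in the totals but were not counted as repeated, which lowers the shares of lists that hold them. Among these peaks were HNRNPL, HNRNPU and PRPF38B of the spliceosome list and IL27 of the interleukin list. It was 24 of 28 peaks for olfactory receptors (85.7%, 67.3 to 96.0), 10 of 13 for ABC transporters, 22 of 29 for interleukins, chemokines and their receptors (75.9%, 56.5 to 89.7), 9 of 12 for keratins and 20 of 29 for voltage-gated and potassium channels (69.0%, 49.2 to 84.7). It was 8 of 56 for chromatin modifiers (14.3%, 6.38 to 26.2), 4 of 24 for replication and repair genes, 1 of 12 for spliceosome proteins, 1 of 13 for chaperones, and 0 of 13 for subunits of RNA polymerases, Mediator and TAF complexes (upper bound 24.7%). Of the 6 peaks in drug target genes 0 had a repeated score, with an upper bound of 45.9% that includes the 40.9% of all members.

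The peaks with a score of their own also lay elsewhere on the mRNA. Of those that could be placed, 479 of 1711 were at the 5' end, 28.0% (25.9 to 30.2), against 229 of 1392 with repeated scores, 16.5% (14.5 to 18.5). In the 3'UTR the order was the opposite, 15.4% and 24.5%. The same split of the HL60/MX2 peaks in shared genes gave 15.8% (13.7 to 18.0) and 8.84% (7.55 to 10.3) at the 5' end. The difference was thus not particular to HL60/MX2-only genes. In HL60-only genes the split gave 13.6% (11.9 to 15.6) and 12.6% (11.0 to 14.3). Among peaks with repeated scores, the HL60/MX2-only genes were still above the shared genes, 16.5% against 8.84% (7.55 to 10.3). Median scores were 225 and 290 for single and repeated scores, so repeated scores as a class were not lower. How a score came to be repeated was not tested.

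The motifs GGAAA and GGAAG were counted in windows of 100 nt around the peak centre on the strand of the mRNA. They stood in 34.6% (33.0 to 36.2) of 3437 windows, against 29.5% of 129558 consecutive windows along the same transcripts. On the opposite strand of the peak windows the share was 23.9%. The gap held inside the CDS, 38.3% (36.1 to 40.6) against 32.4%. It was not particular to these genes: the shared genes gave 37.0% against 31.6% and the HL60-only genes 36.2% against 30.6%. CTGNA or CTGNG, with G or T at N, stood in 50.3% (48.6 to 52.0) of the peak windows and 51.4% of the consecutive ones. Both kinds of motif can share bases, as in a common GGA, and a match is a description of the sequence only.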

How the data were processed

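The authors prepared m7G-enriched and input libraries from both lines, trimmed reads with cutadapt 1.9.3, aligned them to hg19 with HISAT2 2.0.4 (the labels also name STAR) and called peaks with MACS, whose version is not given in the sources used here. The deposited lists hold 6 columns per peak with a score whose scale is unnamed. Read depth is unknown. RNA-seq data were not analysed here, and results of some genes are not reported here. GENCODE release 44 lifted to GRCh37 (chromosome 1 of 249250621 bp) gave 20163 protein-coding genes without the mitochondrial ones. Ties of exon overlap (113 member peaks) went to the lower gene ID, and 147 member peaks touched exons of more than 1 gene. The 318 HL60/MX2 peaks over no protein-coding exon were left out. Regions refer to the transcript with the longest CDS, and overlap decided the class. Intervals are exact (95%). No test was made between lines. The members and the gene lists, defined by symbol patterns, were chosen with earlier results of these data known. Genes were named by fixed rules: the most peaks, the highest and lowest scores, the best scores of each list, every drug target and myeloid gene, and the printed sequences. The assignment was tested on simulated peaks. Alternatives covered assignment, overlap, gene span, score, length and strand. The split by repeated scores was chosen after seeing the data. Python 3.11.15, numpy 2.4.6, scipy 1.17.1, pysam 0.24.0 and matplotlib 3.10.9 were used. All statements on sequence refer to the hg19 reference.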

Additional observations from a re-analysis of the deposited data

How the results depend on the processing

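Of 76 alternative values for 9 results, 65 stayed within the interval, the spread or 1.5 times the count of the reported value. For mean GC content the spread was the SD over peaks, and for median score and median exon length it was the quartiles. Those limits are wide enough to hold the values of the other gene groups given above, so staying within them says little. With only peaks at or above the median score of their own list, 2647 peaks (2303 genes), 21.4% at the 5' end and a median score of 485.32 remained. With peaks of at least 50 bp the CDS held 50.6% and the 3'UTR 21.5%. With only scores held by 1 peak in both lists, an alternative added after seeing the data, 2179 genes and 2535 peaks were left, with 25.1% at the 5' end, 55.8% in the CDS and 15.7% in the 3'UTR. On the opposite strand 23.9% of windows held GGAAA or GGAAG. The number of genes ranged from 2179 to 3473 over all settings. No paired analysis was possible because each line has 1 enriched library.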

Other observations

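Other HL60/MX2-only genes fell in families that the comparisons above do not cover. Solute carriers, the membrane transporters of small molecules, counted 54 of 352 (15.3%, 11.7 to 19.5) with 56 in HL60 only, led after SLC25A12 by SLC5A8, a monocarboxylate carrier (1537.5), and SLC23A3 (1476.61). ABC transporters counted 7 of 48 (14.6%, 6.07 to 27.8, beside 16.5% of all genes), with 7 in HL60 only and 14 in both. None of the HL60/MX2-only ones was ABCG2, ABCC1 or ABCB1. ABCC2, an organic anion pump, held peaks at 540.63 and 636.37, ABCC3 peaks of 237.32 to 633.32 and ABCA1, which exports cholesterol, peaks of 123.95 to 485.32.

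Interleukins, chemokines and their receptors counted 25 of 146 (17.1%, 11.4 to 24.2). IL27 led with 3100 in exon 4, before IL25 (829.2), IL19 (808.28) and CXCL14 (787.5). Among surface antigens, CD276 reached 1274.12, and CD274, the ligand PD-L1, had 1 coding peak at 685.79. The score of CD274 was also held by 20 other peaks of the list, among them those of CD3G and TUBAL3. Replication and repair genes counted 18 of 125 (14.4%), led by ERCC1, a nuclease subunit of excision repair (1497.55), and ORC5, a subunit of the origin recognition complex, at 595.63 over the start codon. Proteasome genes counted 5 of 48 and respiratory chain genes 6 of 94, led by PSMD5 (371.54) and NDUFS7 (836.77).

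Several further lists are given by their counts, beside 16.5% of all genes. Orphan and adhesion G protein coupled receptors counted 18 of 107 (16.8%), surface antigens with CD numbers 15 of 91 (16.5%), voltage-gated and potassium channels 22 of 135 (16.3%), vacuolar ATPase subunits 4 of 25 (16.0%) and genes with provisional names 130 of 854 (15.2%). Developmental transcription factors counted 21 of 142 (14.8%), among them HOXA9, a homeobox gene of myeloid leukaemia, with a 13 bp peak at 550.01 that tied with an overlapping gene. That score was held by 45 peaks of the list in all. MAP kinase cascade genes counted 7 of 49, with MAP3K21 holding 4 peaks of 83.41 to 926.73, aminoacyl-tRNA synthetases 5 of 38, chaperones 11 of 84 and subunits of RNA polymerases, Mediator and TAF complexes 13 of 100. Collagens counted 7 of 44, with 14 in HL60 only. POLR2J and POLR2J2, at 880.72 and 485.44, and FAM72A and FAM72D, at 1970.15 and 1976.14, are pairs of closely related copies, and how reads shared by such copies were assigned was not tested.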
